A study of Mus musculus with 16 samples.

Results

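The genes described here are 8 members of one signalling group in neurons: the calcium/calmodulin-dependent protein kinase II (CaMKII) genes Camk2a, Camk2b, Camk2d and Camk2g, the CaMKII inhibitor gene Camk2n1, the neurogranin gene Nrgn, and the calmodulin genes Calm2 and Calm3. They were taken by name from the raw gene counts. All 8 passed the filter on low counts, among 13139 genes tested of 16934 in all. The group was put together with the comparisons of co-cultured and lone neurons in these data known, so the values of those comparisons, and the counts of members past the threshold in them, are a description and support nothing. The comparisons of loaded and untreated neurons were tested. They use the same libraries as the comparisons known at the choice, so they are not independent of it.

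The cells were primary cortical neurons from C57BL/6 mouse embryos of embryonic day 15 to 16, cultured for 14 days, and the measurement was a count of messenger RNA 3′ ends per gene. The loaded neurons were given 0.1 µM of Atto488-labelled α-synuclein fibrils for 16 h and were then washed. α-Synuclein is a presynaptic protein whose aggregates are the hallmark of Parkinson's disease. Neurons were kept for a further 6 h with or without microglia, the brain's own phagocytes. The 4 groups were loaded neurons in co-culture with microglia (loaded co-culture), loaded neurons alone, untreated neurons in co-culture with microglia (untreated co-culture) and untreated neurons alone, with 4 libraries each, or 16 in all. The labels give no genotype beyond the strain, and the fibrils were added to the cells rather than formed in them. How neurons and microglia were separated before RNA isolation is not stated in the labels. Nor is it stated that each library had its own culture or animal, so the p-values reflect variation among these libraries, part or all of which may be technical.

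CaMKII is a kinase of many subunits that is switched on when calmodulin, loaded with calcium, binds it, and that can then hold itself active by phosphorylating its own subunits. In forebrain excitatory neurons it is one of the most abundant proteins of the postsynaptic density and is needed for long-term potentiation. Neurogranin is a small postsynaptic protein that binds calmodulin at low calcium and releases it when calcium rises, and so sets how much calmodulin CaMKII can draw on. The protein encoded by Camk2n1 binds the active kinase and blocks it.

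Total counts were 6511516 to 13986374 per library, of which the ribosomal RNA gene Rn45s took 9.35% to 26.8%. The biological coefficient of variation of the fit was 1.17, so single genes varied widely between libraries of a group. Values are in CPM, each gene's counts as a rate per fixed number of counts, with TMM scaling between libraries. The kit counts transcript 3′ ends, whose number does not grow with gene length, so CPM of different genes can be set side by side. The lowest count of a member in any library was 46. Replicates are numbered 1 to 4 within a group, and values for the 4 libraries are listed in that order. In bulk RNA of this kind, fewer cells of a type and less RNA of a gene per cell cannot be told apart.

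The neuronal label was checked against marker genes. Slc17a7, the vesicular glutamate transporter of cortical excitatory neurons, averaged 24.1 ± 25.7 CPM in loaded co-culture, 209.9 ± 174 CPM in loaded neurons alone, 52.2 ± 46.2 CPM in untreated co-culture and 377 ± 228 CPM in untreated neurons alone (SD, n = 4 each). Of 10 excitatory neuron markers, 8 were at 0 in replicate 1 of loaded co-culture and 7 in replicate 1 of untreated co-culture. In summed excitatory markers, replicate 2 of loaded co-culture, with 5 at 0, was as low as replicate 1 (32.6 and 32.3 CPM). Replicate 4 of untreated co-culture held 57.7 CPM beside 39.9 CPM in replicate 1. The replicate 1 libraries of both co-cultures stood apart in 14 microglial markers, with summed levels of 1375 CPM in the loaded one and 672 CPM in the untreated one. The remaining 6 libraries of co-culture held 11.4 to 74.8 CPM of these and the 8 of neurons alone held 4.92 to 41.0 CPM.

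Calm2 and Calm3 are separate genes that encode the same protein. In the GENCODE annotation of the mouse build GRCm38, their coding sequences each had 447 bases, or 149 codons without the stop. They shared 82.6% of these bases and differed in 76 codons, yet in 0 residues. The first calcium-binding loop, coding bases 61 to 96, shows this, and capitals mark the 7 of its 36 bases at which the genes differ.

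Calm2 (chromosome 17, minus strand): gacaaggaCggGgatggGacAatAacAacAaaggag

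Calm3 (chromosome 7, minus strand): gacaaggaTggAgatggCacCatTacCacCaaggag

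The kit reads 3′ ends, where the members are distinct. The last 300 bases of the longest principal coding transcript of each of the 8 members matched no other annotated gene at 90% identity or more over 75 bases or more. Camk2d is overlapped by 8 predicted gene models and Camk2a by 2 microRNA genes, and since the strand setting of the counting is not given, reads they share could not be told apart.

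By the same annotation, Camk2a lies on chromosome 18. Camk2b is at chr11:5969644-6066362 on the minus strand, Camk2d at chr3:126596302-126846326 on the plus strand and Camk2g at chr14:20734875-20794088 on the minus strand. Camk2n1 is at chr4:138454314-138460123 on the plus strand and Nrgn at chr9:37544492-37552904 on the minus strand. Calm2 is at chr17:87433412-87446935 and Calm3 at chr7:16915379-16924114, both on the minus strand.

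Promoters, from 250 bases before to 50 bases after a gene's start, were given in RefSeq (GRCm38.p6) for 4 of the 8 members. Those of Nrgn and Calm3 are printed because Nrgn had the widest range between groups and Calm3 the narrowest spread within them, as described next. Capitals mark GGGCGG or TGACG on either strand.

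Nrgn promoter, chr9:37552696-37552995, minus strand: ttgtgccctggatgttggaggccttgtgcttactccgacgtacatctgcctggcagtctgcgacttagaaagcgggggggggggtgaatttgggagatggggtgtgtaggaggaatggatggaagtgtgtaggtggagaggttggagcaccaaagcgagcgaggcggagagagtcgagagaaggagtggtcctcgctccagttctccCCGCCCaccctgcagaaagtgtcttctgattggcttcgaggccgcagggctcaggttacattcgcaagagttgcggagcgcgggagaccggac

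Calm3 promoter, chr7:16923983-16924282, minus strand: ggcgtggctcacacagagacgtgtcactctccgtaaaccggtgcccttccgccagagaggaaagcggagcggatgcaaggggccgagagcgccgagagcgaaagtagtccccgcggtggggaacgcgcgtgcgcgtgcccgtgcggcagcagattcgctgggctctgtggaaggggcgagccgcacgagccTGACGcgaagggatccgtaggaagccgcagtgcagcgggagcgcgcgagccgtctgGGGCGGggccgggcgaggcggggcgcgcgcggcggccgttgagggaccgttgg

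The Nrgn window was 59.3% G and C and held 1 GGGCGG, 0 TGACG and 0 TATAAA. The Calm3 window was 72% G and C and held 1 GGGCGG, 1 TGACG and 0 TATAAA. Among 32851 RefSeq mouse promoters of the same length, 35.7% held GGGCGG, 20.8% TGACG and 13.6% TATAAA on either strand. These matches describe the letters of the windows alone.

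Every member was most abundant in untreated neurons alone. Averaged over 4 libraries, 6 of the 8 followed one order, with loaded co-culture lowest, then untreated co-culture, then loaded neurons alone, then untreated neurons alone. The exceptions were Camk2g and Calm3. The highest group mean was 16.1 times the lowest for Nrgn, 9.42 times for Camk2a, 6.45 times for Camk2b, 6.2 times for Camk2n1 and 5.79 times for Camk2d. The range was narrower for Calm2, at 3.41 times, Calm3, at 2.14 times, and Camk2g, at 1.79 times. No member had groups next to each other in this order whose libraries did not overlap.

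Together the 8 genes summed to 1790.3 ± 469.7 CPM in loaded co-culture, against 6962 ± 4133 CPM in loaded neurons alone (SD, n = 4 each). They summed to 2542 ± 1353 CPM in untreated co-culture, against 12175 ± 2146 CPM in untreated neurons alone. The libraries did not overlap in either pair.

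**Figure D1:**
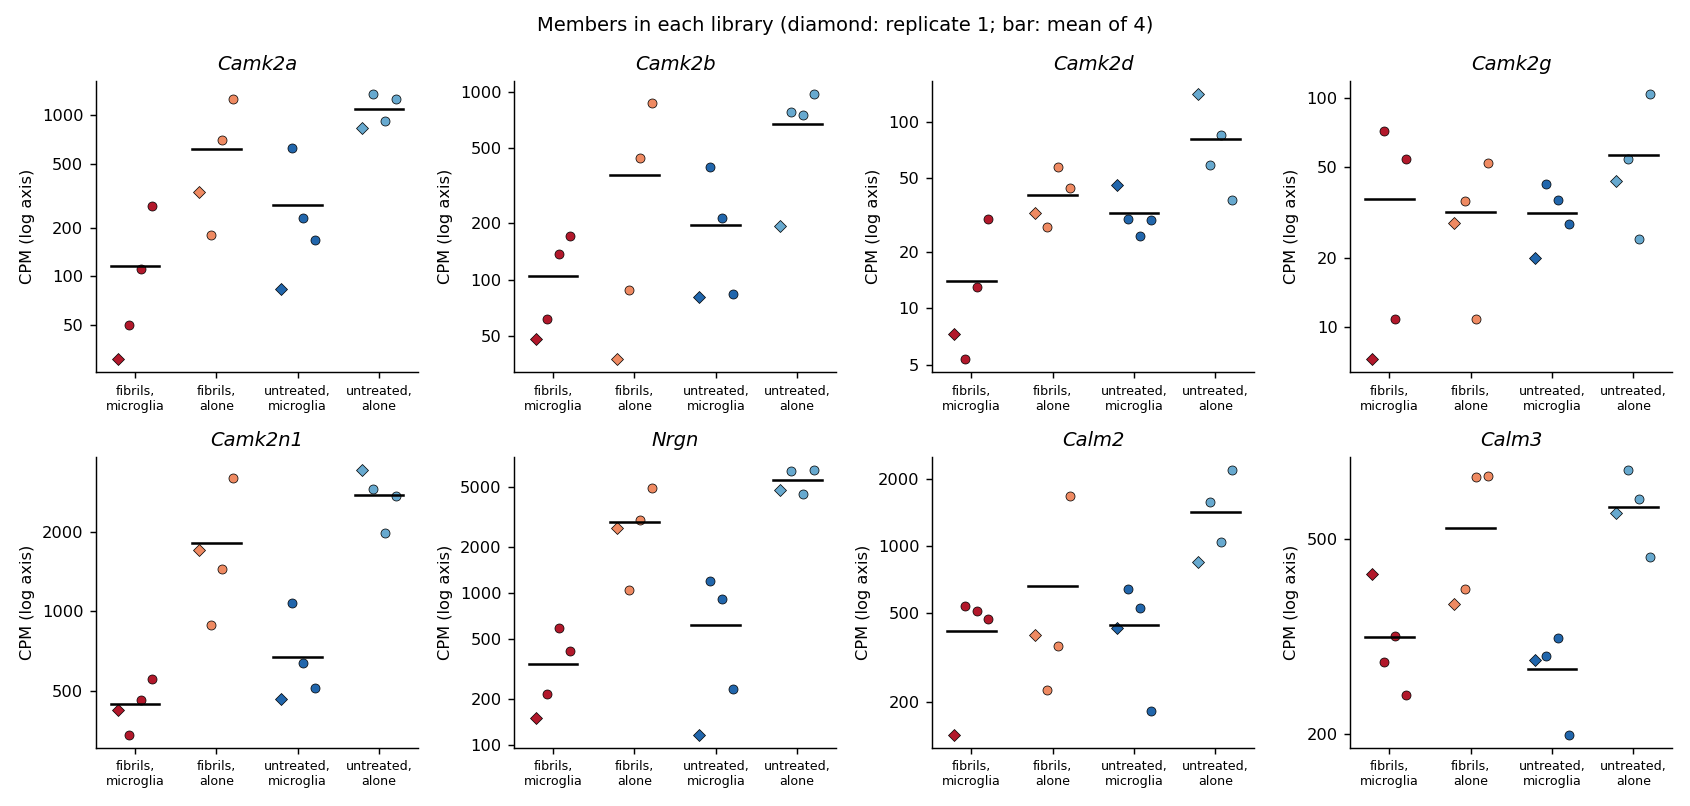
CPM of each member (log axis) in the 16 libraries, grouped on the x axis by fibrils and microglia; each point is a library, diamonds are replicate 1 and bars are group means. Co-culture libraries of Nrgn lie between 117 and 1200.2 CPM and most lie far below those of neurons alone, while those of Camk2g are mixed.

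Nrgn and Camk2n1, the genes whose products hold calmodulin and block the kinase, showed the clearest separation with microglia. Nrgn had 150.5, 215, 586 and 413 CPM in loaded co-culture, against 2667, 1048, 3003 and 4901 CPM in loaded neurons alone. It had 117, 1200.2, 912 and 235 CPM in untreated co-culture, against 4765, 6335, 4459 and 6436 CPM in untreated neurons alone. All 4 co-culture libraries lay below all 4 libraries of neurons alone in both pairs. Replicate 1 was the lowest co-culture library in each, and replicate 2 of loaded neurons alone was the one library of lone neurons within the range of the co-cultures. The fitted log2 change with microglia was -3.09 ± 0.67 (SE) in loaded and -3.16 ± 0.68 in untreated neurons, the lowest value among the 8 members in both.

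Camk2n1 had 424, 342, 462 and 556 CPM in loaded co-culture, against 1712, 887, 1454 and 3198 CPM in loaded neurons alone. It had 465, 1074, 638 and 515 CPM in untreated co-culture, against 3432, 2919, 1980.3 and 2733 CPM in untreated neurons alone. The groups again did not overlap, and the co-culture libraries lay close together, with replicate 2 of untreated co-culture the one exception. The log2 changes were -2.02 ± 0.36 and -2.04 ± 0.36 in loaded and untreated neurons. Its spread within groups was narrow, with an SD of 0.52 on the log2 scale, against 1.03 for Nrgn.

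A gene was called where edgeR's quasi-likelihood test gave a p under 0.05 after Benjamini-Hochberg adjustment over all genes tested. Camk2n1 was the 1 member of 8 called in loaded neurons, where 0.114% of all genes were called, and the 1 of 8 called in untreated neurons, where 0.122% were. With the microglia effects of both states averaged, 4 of 8 were called (Camk2a, Camk2n1, Nrgn and Calm3), against 2.19% of all genes. Nothing is read from these counts, since the same comparisons led to the choice of the members. Of the members, 2 of 8 (Camk2n1 and Nrgn) lay wholly below lone neurons in the loaded pair, beside 2.91% of all genes, and 5 of 8 (Camk2a, Camk2n1, Nrgn, Calm2 and Calm3) in the untreated pair, beside 3.81%.

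The call of Camk2n1 in loaded neurons was lost without replicate 1, 2 or 3 of loaded co-culture, one at a time, and that in untreated neurons without replicate 1 or 4 of untreated co-culture or replicate 2, 3 or 4 of untreated neurons alone. Its log2 change stayed between -2.24 and -1.60 in loaded and between -2.34 and -1.90 in untreated neurons with any 1 of the 16 libraries left out. In the averaged comparison Camk2a was called only with all 16 libraries or without replicate 4 of loaded co-culture, replicate 2 of loaded neurons alone or replicate 2 of untreated co-culture, and was lost without any 1 of the other 13. Calm3 was lost without replicate 2 of loaded co-culture or replicate 2 of untreated neurons alone. Calls were gained by Nrgn in loaded neurons without replicate 1 of untreated co-culture, and by Camk2d in the averaged comparison without replicate 4 of loaded co-culture. Without replicate 1 of both co-cultures, the libraries rich in microglial markers, the log2 change of Camk2n1 was -2.0 in loaded and -1.89 in untreated neurons, and that of Nrgn was -2.85 and -2.80.

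Camk2a and Camk2b encode the α and β subunits, the main forms of the kinase in forebrain neurons. Camk2a had 30.8, 49.9, 112 and 272 CPM in loaded co-culture, against 332, 182, 705 and 1257 CPM in loaded neurons alone. It had 83, 631, 231 and 167 CPM in untreated co-culture, against 837, 1352, 922 and 1264 CPM in untreated neurons alone. In loaded neurons the groups overlapped, because replicate 4 of co-culture was above replicate 2 of neurons alone, and in untreated neurons they did not. The log2 changes with microglia were -2.41 ± 0.76 and -1.98 ± 0.75 in loaded and untreated neurons.

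Camk2b had 48.4, 61.7, 137 and 172 CPM in loaded co-culture, against 38.0, 88.0, 444 and 867 CPM in loaded neurons alone. It had 81.3, 399.6, 214 and 84.5 CPM in untreated co-culture, against 192, 782, 754 and 969 CPM in untreated neurons alone. Groups overlapped in both pairs, since replicate 1 of the lone neurons was low in each, as was replicate 2 in the loaded pair. Camk2b had the widest spread within groups of the 8 members, an SD of 1.36 on the log2 scale, and its log2 changes were -1.78 ± 0.87 and -1.79 ± 0.87.

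Camk2d and Camk2g encode the δ and γ subunits, which are made in many tissues. Camk2d had 7.25, 5.37, 13 and 30.2 CPM in loaded co-culture, against 32.4, 27.4, 57.7 and 44.0 CPM in loaded neurons alone. It had 45.8, 30.0, 24.5 and 30.0 CPM in untreated co-culture, against 141, 58.6, 85.5 and 38.4 CPM in untreated neurons alone. One library in each pair made the groups overlap, and the log2 changes were -1.53 ± 0.58 and -1.31 ± 0.57.

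Camk2g had 7.25, 72.0, 10.8 and 54.3 CPM in loaded co-culture, against 28.5, 35.4, 10.8 and 52.0 CPM in loaded neurons alone. It had 19.99, 42.0, 35.8 and 28.0 CPM in untreated co-culture, against 43.4, 54.1, 24.2 and 104 CPM in untreated neurons alone. The groups were mixed in both pairs. Its log2 change was 0.19 ± 0.67 in loaded neurons, the 1 positive value among the 16 of the members with microglia, and -0.84 ± 0.68 in untreated neurons.

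Calm2 had 142, 542, 512 and 472 CPM in loaded co-culture, against 397, 226, 357 and 1684 CPM in loaded neurons alone. It had 427, 643, 528 and 181 CPM in untreated co-culture, against 849, 1587, 1050.1 and 2207 CPM in untreated neurons alone. The loaded groups overlapped, with 3 of the 4 co-culture libraries above 3 of the 4 of neurons alone, while the untreated groups were apart. The log2 changes were -0.68 ± 0.58 and -1.68 ± 0.59. The loaded value depended on replicate 4 of loaded neurons alone: without it the log2 change was 0.35.

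Calm3 had 425, 280.2, 317 and 239.9 CPM in loaded co-culture, against 369, 395, 672 and 675 CPM in loaded neurons alone. It had 283, 288, 314 and 199 CPM in untreated co-culture, against 565, 693, 605 and 461 CPM in untreated neurons alone. Replicate 1 of loaded co-culture was the one co-culture library within the range of the lone neurons. Calm3 was the steadiest member, with an SD within groups of 0.35 on the log2 scale, and its log2 changes were -0.74 ± 0.29 and -1.10 ± 0.29.

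**Figure D2:**
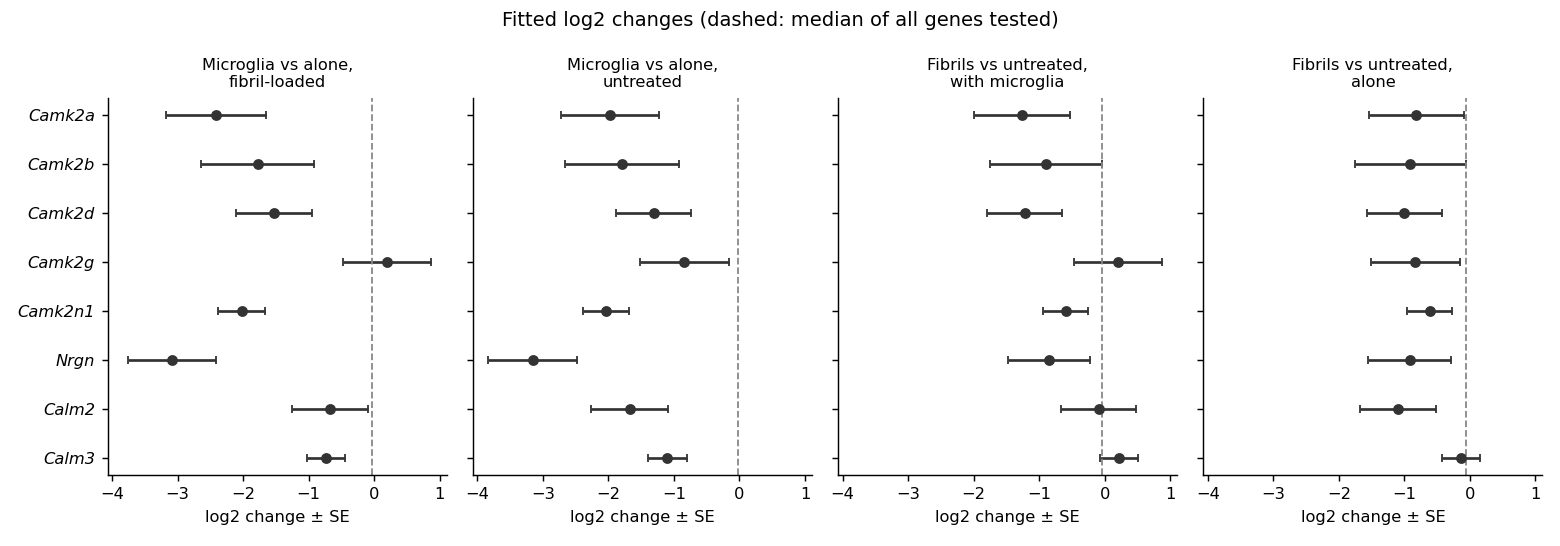
Fitted log2 change (x axis, point with SE bar) of each member in the 4 simple comparisons, with the median of all genes tested as a dashed line. With microglia, Nrgn stands at -3.09 in loaded and -3.16 in untreated neurons; with fibrils all values lie between -1.26 and 0.22.

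The median log2 change of the 8 members with microglia was -1.66 in loaded and -1.73 in untreated neurons, beside -0.03 and -0.02 over all genes tested. The changes were below 0 for 7 of 8 members in loaded and 8 of 8 in untreated neurons, beside 51.2% and 50.8% of all genes. Camk2n2, which encodes the other CaMKII inhibitor, was scarcer, at 32.5 ± 23.5 CPM in loaded co-culture, 64.0 ± 49.0 CPM in loaded neurons alone, 66.1 ± 17.3 CPM in untreated co-culture and 117 ± 50.8 CPM in untreated neurons alone.

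The fibril comparisons ask whether the members differed between loaded and untreated neurons kept in the same way. No member passed the test. Alone, all 8 were lower in loaded than in untreated neurons, beside 52.4% of all genes, with a median log2 change of -0.87 beside -0.06 over all genes. The log2 changes were -1.10 ± 0.58 for Calm2, -1.0 ± 0.57 for Camk2d, -0.92 ± 0.63 for Nrgn and -0.91 ± 0.85 for Camk2b. They were -0.83 ± 0.68 for Camk2g, -0.82 ± 0.73 for Camk2a, -0.61 ± 0.34 for Camk2n1 and -0.14 ± 0.29 for Calm3. Adjusted p-values of edgeR's quasi-likelihood test ranged from 0.795 (Calm2) to 1, and 0 of 8 were called, as were 0% of all genes. At an unadjusted p under 0.05, 0 of 8 members and 6.92% of all genes (909) passed. DESeq2 called 173 genes and limma-voom 0 in this comparison, and each called 0 members. Replicate 4 of loaded neurons alone was the highest of its group for every member but Camk2d. It also held 7271 CPM of the markers of any neuron, against 1391 to 3704 CPM in the rest of its group. This library moved the log2 changes. Without it the log2 change was -2.12 for Calm2 (adjusted p = 0.0987, edgeR), -1.83 for Camk2b (adjusted p = 0.481), -1.43 for Camk2a, -1.03 for Camk2n1 and -0.28 for Calm3, and 0 members were called. Over all genes edgeR then called 7, with 1467 at an unadjusted p under 0.05.

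In co-culture 6 of 8 members were lower in loaded than in untreated neurons, beside 52.5% of all genes, with a median of -0.72 beside -0.04. The lowest were Camk2a at -1.26 ± 0.73, Camk2d at -1.22 ± 0.57 and Camk2b at -0.90 ± 0.85, followed by Nrgn at -0.85 ± 0.63 and Camk2n1 at -0.59 ± 0.34. Calm2 was at -0.09 ± 0.58, Camk2g at 0.20 ± 0.67 and Calm3 at 0.22 ± 0.29. All 8 adjusted p-values were 1, and 0% of all genes were called. Camk2d alone had an unadjusted p under 0.05 (0.0438, edgeR), as did 3.68% of all genes (483). DESeq2 called 130 genes and limma-voom 0, and each called 0 members. Without replicate 4 of loaded co-culture the log2 change was -2.12 for Camk2a and -1.93 for Camk2d, and 0 members were called. No member's libraries were apart between loaded and untreated neurons, alone or in co-culture, beside 2.22% and 1.04% of genes wholly lower.

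Averaged over neurons alone and in co-culture, the log2 change with fibrils was -1.11 ± 0.40 for Camk2d (adjusted p = 0.673, edgeR) and -0.60 ± 0.24 for Camk2n1 (adjusted p = 0.725). These were the 2 members with an unadjusted p under 0.05, and 0% of genes were called by edgeR, with 6.62% (870) at an unadjusted p under 0.05, 257 called by DESeq2 and 0 by limma-voom. Without replicate 4 of loaded neurons alone, edgeR called 1 gene, which was no member, and 1390 had an unadjusted p under 0.05. With standard errors this wide, changes of the size fitted for Calm2 or Camk2d did not pass the adjusted test.

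The interaction asks whether the change with microglia differed between loaded and untreated neurons. It was near 0 for Camk2b, at 0.01 ± 1.20, Camk2n1, at 0.02 ± 0.48, and Nrgn, at 0.07 ± 0.88. It was 1.03 ± 0.95 for Camk2g, 1.00 ± 0.82 for Calm2, 0.36 ± 0.41 for Calm3, -0.22 ± 0.80 for Camk2d and -0.44 ± 1.02 for Camk2a. All 8 adjusted p-values were 1 (edgeR), and 0% of genes were called, with 4.03% (529) at an unadjusted p under 0.05, 187 called by DESeq2 and 0 by limma-voom. Without replicate 4 of loaded neurons alone, 861 genes had an unadjusted p under 0.05 and 0 were called by edgeR. The standard errors leave room for sizeable differences in either direction.

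Ratios between members within a library do not depend on scaling between libraries, and they show which members differed in proportion. Nrgn counts were 0.265, 0.262, 0.707 and 0.580 times those of Calm2 and Calm3 together in loaded co-culture, against 3.48, 1.69, 2.92 and 2.08 times in loaded neurons alone. They were 0.165, 1.29, 1.08 and 0.618 times in untreated co-culture, against 3.37, 2.78, 2.69 and 2.41 times in untreated neurons alone. In lone neurons Nrgn thus exceeded this pair of calmodulin genes in all 8 libraries, and in co-culture in 2 of 8. A further calmodulin gene is not part of the sum, so the ratio does not set Nrgn against all calmodulin RNA. The mean log2 ratio differed by -2.57 (co-culture minus alone) in loaded and -2.18 in untreated neurons, and the libraries did not overlap in either pair.

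The inhibitor and the kinase genes had like ratios in co-culture and alone. Camk2n1 counts were 2.27 ± 1.54 times those of the 4 CaMKII genes in loaded co-culture, against 2.32 ± 1.28 times in loaded neurons alone (SD, n = 4 each). They were 1.48 ± 0.46 times in untreated co-culture, against 1.60 ± 0.82 times in untreated neurons alone. The mean log2 ratios differed by -0.08 and -0.05, well within the spread. Replicate 1 had the highest ratio in every group, at 4.52, 3.97, 2.02 and 2.83 in the order just given. Nrgn relative to Camk2n1 was 0.749 ± 0.382 in loaded co-culture against 1.58 ± 0.36 in loaded neurons alone, and 0.814 ± 0.552 in untreated co-culture against 2.04 ± 0.44 in untreated neurons alone, with overlap in both pairs.

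**Figure D3:**
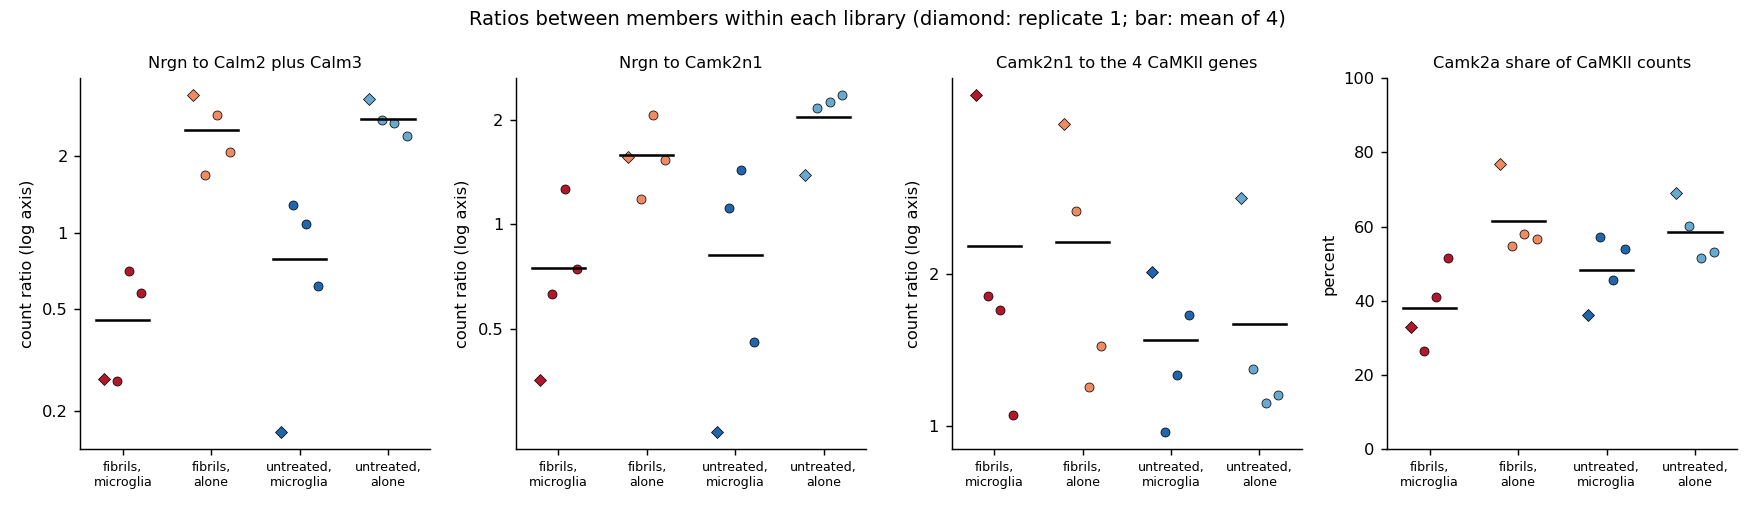
Count ratios between members (log axes, first 3 panels) and the percent of CaMKII counts from Camk2a (last panel) in each library; diamonds are replicate 1 and bars are group means. Nrgn to Calm2 plus Calm3 is at most 1.29 in co-culture and at least 1.69 alone, while Camk2n1 to the CaMKII genes overlaps between all groups.

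The mix of kinase genes varied between libraries. Camk2a gave 32.8%, 26.4%, 41.0% and 51.5% of the CaMKII counts in loaded co-culture, against 77.0%, 54.7%, 57.9% and 56.6% in loaded neurons alone. It gave 36.1%, 57.2%, 45.7% and 54.0% in untreated co-culture, against 69.0%, 60.2%, 51.6% and 53.2% in untreated neurons alone. The loaded groups were apart and the untreated groups overlapped. Camk2b gave 41.8% ± 10.6 in loaded co-culture against 27.7% ± 13.7 in loaded neurons alone, and 35.3% ± 6.2 in untreated co-culture against 33.4% ± 12.2 in untreated neurons alone. Camk2d and Camk2g were minor in most libraries. The exceptions were Camk2g at 38.1% in replicate 2 of loaded co-culture and Camk2d at 19.9% in replicate 1 of untreated co-culture. These shares rest on 594 to 32358 CaMKII counts per library, the fewest in replicate 1 of loaded co-culture. There the 95% Wilson score interval of the Camk2a share was 29.2% to 36.7%. Such intervals cover counting error only, since copies made by PCR are not independent molecules.

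**Figure D4:**
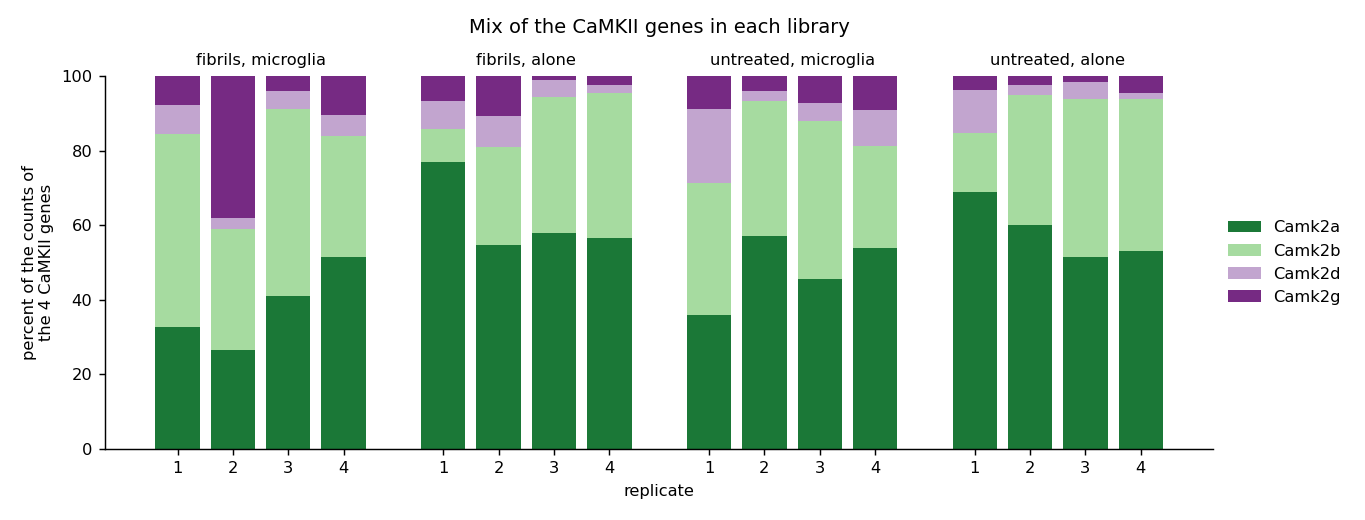
Percent of the summed counts of the 4 CaMKII genes (y axis) given by each gene in each library, with replicates 1 to 4 of each group side by side. Camk2a is between 26.4% and 51.5% in loaded co-culture and at least 51.6% in every library of neurons alone.

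Neuronal and glial markers also differed between the groups. The 10 excitatory neuron markers summed to 111 ± 97.2 CPM in loaded co-culture against 460.1 ± 398 CPM in loaded neurons alone, and to 173 ± 144 CPM in untreated co-culture against 821 ± 341 CPM in untreated neurons alone. Their log2 changes were below 0 for 10 of 10 in both comparisons, with medians of -1.92 in loaded and -1.55 in untreated neurons, and 0 called. The 11 markers of any neuron summed to 1785 ± 320 CPM in loaded co-culture against 3521 ± 2701 CPM in loaded neurons alone, and to 2092 ± 873 CPM in untreated co-culture against 5775 ± 1868 CPM in untreated neurons alone. The 15 markers of the oligodendrocyte lineage ran the other way, with 6169 to 10017 CPM in loaded co-culture against 1513 to 3116 CPM in loaded neurons alone, and 4261 to 8377 CPM in untreated co-culture against 1119.8 to 2179 CPM in untreated neurons alone, and 3 of 15 were called higher in each comparison. Astrocyte markers summed to 2245 ± 1197 CPM in loaded co-culture, 5678 ± 2361 CPM in loaded neurons alone, 3039 ± 2525 CPM in untreated co-culture and 3809 ± 2449 CPM in untreated neurons alone. Inhibitory neuron markers summed to 74.8 ± 79.1, 152 ± 142, 76.3 ± 52.4 and 195 ± 128 CPM in the same groups. The part of these shifts in the members' values was not tested.

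With fibrils, 9 of 10 excitatory markers were lower in co-culture and 9 of 10 alone, with medians of -0.79 and -0.74, beside -0.72 and -0.87 for the members. Oligodendrocyte lineage markers were higher for 14 of 15 in co-culture and 11 of 15 alone, with medians of 0.65 and 0.58. Markers of any neuron were lower for 7 of 11 in co-culture and 11 of 11 alone, with medians of -0.48 and -0.76. Astrocyte markers were lower for 9 of 11 in co-culture (median -0.42) but higher for 11 of 11 alone (median 0.45), and the interaction was below 0 for 11 of 11 (median -1.13). None of these markers was called, and their part in the members' values was not tested.

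Set against the summed markers of any neuron in the same library, a scaling chosen after the values were seen, Nrgn was 0.0906 to 0.271 in loaded co-culture against 0.674 to 1.55 in loaded neurons alone, and 0.0784 to 0.439 in untreated co-culture against 0.724 to 1.57 in untreated neurons alone. The groups did not overlap in either pair, and the mean log2 differences were -2.41 and -2.21. Those of Camk2a were -1.86 and -0.84 and those of Camk2n1 -1.21 and -0.60. Camk2n1 was also apart in loaded neurons, at 0.214 to 0.293 in co-culture against 0.393 to 0.997 alone, but not in untreated neurons. The groups of the remaining members overlapped on this scale. Calm3 differed by -0.03 and 0.39, Calm2 by 0.30 and -0.23, Camk2b by -0.37 and -0.39, Camk2d by -1.12 and 0.31 and Camk2g by 0.46 and 0.79. Set against the excitatory markers instead, Nrgn differed by -0.91 in loaded neurons, with overlap, and by -1.03 in untreated neurons, with 2.94 to 4.15 in co-culture against 5.14 to 11.5 alone. On that scale Camk2a differed by -0.36 in loaded and 0.34 in untreated neurons. The members other than Camk2a and Nrgn had higher mean log2 ratios in co-culture in both states. Their differences were 0.29 and 0.58 for Camk2n1, 1.13 and 0.79 for Camk2b and 0.38 and 1.49 for Camk2d. They were 1.96 and 1.97 for Camk2g, 1.80 and 0.95 for Calm2, and 1.46 and 1.57 for Calm3. Apart from Nrgn, the groups overlapped for every member except Calm2 in loaded and Camk2g in untreated neurons. Camk2n1, for one, was at 1.98 to 13.1 in loaded co-culture, highest in replicate 1, against 3.11 to 7.42 in loaded neurons alone. In replicate 1 of loaded and of untreated co-culture, 8 and 7 of the 10 excitatory markers were at 0, so ratios there rest on few genes.

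**Figure D5:**
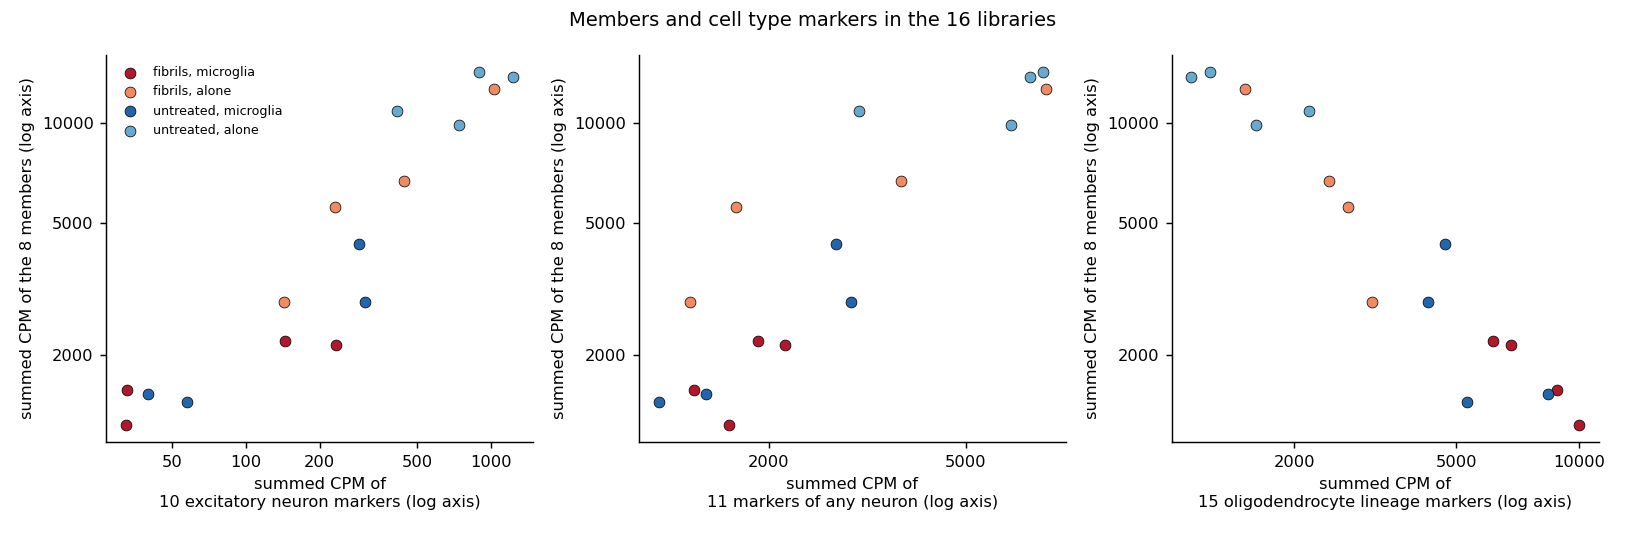
Summed CPM of the 8 members (y axis, log) against the summed CPM of 3 marker lists (x axes, log), with a point for each of the 16 libraries. Libraries with more excitatory or general neuronal marker RNA tend to hold more member RNA, and those with the most oligodendrocyte lineage RNA, up to 10017 CPM, are co-cultures.

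Other genes of calcium and calmodulin signalling were read from lists chosen, like the members, with results of these data known. Of 45 such genes 43 were tested. Their log2 changes with microglia were below 0 for 39 in loaded and 41 in untreated neurons, with medians of -1.10 and -1.49. Over all genes 51.2% and 50.8% were below 0, with medians of -0.03 and -0.02. By edgeR 0 of the 43 were called in either. DESeq2 called 4 of them lower in each, beside 272 and 133 of all genes tested. With limma-voom 0 and 3 were called lower, beside 23 and 57 of all genes. In the averaged comparison 3 of 12 CaMKII partners and substrates at synapses were called. So were 1 of 7 genes of calcineurin and its regulators and 1 of 9 other calmodulin-regulated enzymes and pumps. All were lower, beside 0.974% of all genes called lower. They were Grin1, an NMDA receptor subunit (-1.99 ± 0.38), Ppp3ca, a catalytic subunit of calcineurin (-1.15 ± 0.24), Dlg4, a scaffold of the postsynaptic density (-1.72 ± 0.37), Kalrn, a guanine nucleotide exchange factor of dendritic spines (-1.53 ± 0.37), and Atp2b2, a plasma membrane calcium pump (-2.20 ± 0.51), each value a log2 change ± SE by edgeR. Nothing is read from these counts, since the lists were chosen with the same comparison known. By list, 12 of 12 CaMKII partners and substrates at synapses and 7 of 7 genes of calcineurin and its regulators were below 0 in that comparison. So were 9 of 10 other CaM kinases and kinase-like genes and 8 of 9 other calmodulin-regulated enzymes and pumps. The list of the other CaMKII inhibitor and small calmodulin-binding proteins had 4 of 4 below 0. With fibrils 36 of 43 were below 0 alone and 31 of 43 in co-culture, with medians of -0.72 and -0.36. Over all genes 52.4% and 52.5% were below 0, with medians of -0.06 and -0.04. By edgeR 0 of the 43 were called in either, beside 0% of all genes. DESeq2 called 0 alone and 2 lower in co-culture, of 173 and 130 genes called in all. It also called 2 lower in the averaged fibril comparison and 2 in the interaction, of 257 and 187 genes.

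Likeness across libraries was measured as the root mean square difference in log2 CPM over the 16 libraries, after centring each gene on its mean, among 6355 well-expressed genes. Closest to Camk2n1 were Thy1 (0.50), Ppp3ca (0.53), Nptn (0.54), Gnao1 (0.55) and Disp2 (0.56), where the median gene was at 1.38. Among the 5 closest to Nrgn were Mef2c (0.66), Fam81a (0.81), Atp6v1g2 (0.83) and Atp2b2 (0.83), where the median gene was at 2.09. Closest to Camk2a were Atp6v1g2 (0.52), Rasgef1a (0.55), Fam81a (0.64), Mef2c (0.65) and Atp1b1 (0.69), where the median gene was at 1.83. Nrgn and Camk2a thus shared 3 of their 5 closest genes. Among the members, Camk2a and Nrgn were the closest pair, at 0.77, followed by Camk2n1 and Calm3, at 0.78, and the farthest were Camk2g and Nrgn, at 1.85. All these values share the same libraries and scaling.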

How the data were processed

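Libraries were made with the QuantSeq FWD kit, per the labels' protocols. The submitters' processing notes name STAR, Partek and DESeq2 and the genome build mm10, with no versions. What tool counted the reads, with which strand setting and annotation, is not given in the sources used here. Analysis began from the deposited table with the authors' raw counts for each gene symbol; their table of normalized values was not used. The treatment label gave each sample's group, and libraries with neighbouring codes in their titles were given the same replicate number. Total counts were 6511516 to 13986374 per library.

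The tests were run in R 4.3.3 with edgeR 4.0.16 and its filterByExpr (minimum count of 10, minimum total of 15) and TMM scaling. A single quasi-likelihood fit, robust, covered all 16 libraries with a mean for each group, so the groups share an estimate of the spread. Log2 CPM used a prior count of 2. Calls needed a p under 0.05 after Benjamini-Hochberg adjustment over 13139 genes. Ratios and shares were computed from raw counts within each library. Alternatives were other scalings, no filter, DESeq2 1.42.0, limma-voom (limma 3.58.1), a replicate block, fits of 2 groups, and fits without single libraries or without replicate 1 of both co-cultures.

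The members and all gene lists were chosen with earlier results of these data known. Named genes were the 8 members, Camk2n2, up to 4 called genes per related list and comparison, and the 5 genes nearest to each of Camk2n1, Nrgn and Camk2a among tested genes with a mean log2 CPM above 4, without predicted gene models. Some genes that this rule covers are not reported here. Coding sequences came from GENCODE and promoters from RefSeq, read with Python 3.11.15; transcript ends were compared with blastn 2.17.0, and matplotlib 3.10.9 drew the plots. Protein sequences were not used here.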

Additional observations from a re-analysis of the deposited data

Results flagged for a closer look

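Among 56 groups of 4 libraries examined for a library far from the other 3, which chance alone marks about 1 time in 20, 5 were marked. Calm2 stood at 1684 CPM in replicate 4 of loaded neurons alone, against 226 to 397 CPM in the other 3 libraries of that group. That library was also the highest of its group for every other member but Camk2d. Camk2a gave 77.0% of the CaMKII counts in replicate 1 of loaded neurons alone, against 54.7% to 57.9% in the others. Calm2 gave 25.1% of the counts of Calm2 and Calm3 in replicate 1 of loaded co-culture, the library with the most microglial marker RNA, against 61.8% to 66.3% in the others. Replicate 1 of untreated co-culture, also rich in microglial markers, had 60.1%, within the range of its group (47.6% to 69.1%). In replicate 1 of untreated neurons alone, the log2 ratio of Camk2n1 to the CaMKII genes was 1.5, against 0.15 to 0.38 in the others, and that of Nrgn to Camk2n1 was 0.47, against 1.12 to 1.24. That library had the highest Rn45s share of all, 26.8%. It held 7474 CPM of astrocyte markers, against 2413 to 2831 CPM in the rest of its group. Its markers of any neuron summed to 3043 CPM, against 6159 to 7164 CPM. The causes were not tested.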

How the results depend on the processing

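Of 424 log2 changes of members refitted under other settings (beside single libraries left out), 396 kept their direction and their side of the threshold, 7 lost the call, 10 gained one and 11 turned in direction. Those that turned were all small. With library totals as the scaling, Calm3 with fibrils on average was -0.040. With limma-voom, Camk2g was -0.20 with microglia in loaded neurons and -0.16 with fibrils in co-culture. Without replicate 1 of both co-cultures, Calm2 with fibrils in co-culture was 0.16, Calm3 with fibrils on average -0.040, and the interaction was -0.030 for Camk2b, 0.18 for Camk2d, -0.12 for Camk2n1 and -0.048 for Nrgn.

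The members called with microglia numbered 1 in loaded neurons, 1 in untreated neurons and 4 on average. They were 3, 3 and 7 with DESeq2, 2 and 3 in the single states with limma-voom, 0 and 0 when only the 2 groups compared were fitted, 2 on average with library totals, 3 on average with no filter and also without replicate 1 of both co-cultures (Camk2a lost in each), and 0 in untreated neurons without replicate 1 of both co-cultures. With single libraries left out they ranged from 0 to 2 in loaded neurons, 0 to 1 in untreated neurons and 2 to 5 on average. Over all genes, edgeR called 15, 16 and 288, DESeq2 492, 295 and 1094, limma-voom 40, 92 and 662, library totals 31, 50 and 422, and no filter 26, 26 and 289. With 2 groups fitted 0 and 1 were called, and without replicate 1 of both co-cultures 17, 0 and 152. Library totals put the median gene at 0.18, 0.19 and 0.18 with microglia, with 26 higher and 5 lower calls in loaded neurons, 45 and 5 in untreated neurons and 339 and 83 on average. In the fibril comparisons and the interaction 0 members were called under every setting run. The causes were not tested.

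Same-numbered libraries deviated together only weakly, with correlations of -0.111 to 0.217 over 24 pairs. Still, 12 of 24 matched best with their own number, more often than the 1 in 4 of unrelated numbers. Whether equal numbers mark a shared run cannot be told from this or from the labels. The main fit used no pairing. With the replicate block the members called stayed at 1, 1 and 4, all genes called were 42, 38 and 366, and Camk2g turned to -0.077 with microglia in loaded neurons and to -0.31 with fibrils in co-culture. The block changed no other direction of a member.

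With single libraries left out, values crossed 0 for Calm2 with fibrils in co-culture (-0.35 to 0.18) and with microglia in loaded neurons (-0.95 to 0.35), for Calm3 with fibrils on average (-0.052 to 0.12) and alone (-0.28 to 0.016), and for Camk2g with fibrils in co-culture (-0.38 to 0.53) and with microglia in loaded neurons (-0.39 to 0.54). The interaction crossed 0 for Camk2a (-1.30 to 0.34), Camk2b (-0.37 to 0.93), Camk2d (-0.93 to 0.051), Camk2n1 (-0.22 to 0.44) and Nrgn (-0.33 to 0.60). Ratios between members are free of the scaling between libraries.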
